A study of Mus musculus with 16 samples.

Results

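Phosphate and pyrophosphate handling was examined through 9 mouse genes that act in it or whose human counterparts are tied to brain calcification. They are Slc20a1, Slc20a2, Xpr1, Myorg, Jam2, Ank, Enpp1, Alpl and Nt5e, chosen by gene symbol, and all 9 were found among the 21804 genes of the count table. Myorg carries the older symbol AI464131 in the annotation. The RNA came from C57BL/6 mice aged 4 months with a Pdgfb ret/wt or Pdgfb ret/ret genotype. The ret allele lacks the retention motif by which the growth factor PDGF-B is held near the cells that secrete it, and since the allele is in the germline every cell carries it. The ret/wt controls therefore also carried 1 copy, and no animal without the allele was included. Cortex and thalamus of 8 animals were sequenced as separate libraries, so each pairing of genotype and region was a group of 4 libraries, 4 groups in all. Calcified spots are autofluorescent, and from the thalamus of ret/ret mice they were cut out as such under a fluorescence stereomicroscope, according to the labels, while control pieces were taken by anatomy. In the thalamus, genotype and that way of dissection cannot be told apart. The same pieces enter the comparison of regions in ret/ret, the interaction and the fits over all 8 animals. The way of dissection cannot be separated there either.

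Mineral forms when inorganic phosphate and calcium meet with too little inhibitor, and pyrophosphate is the main small inhibitor outside cells. ENPP1 makes pyrophosphate and AMP from extracellular ATP, ANK (the progressive ankylosis protein) raises extracellular pyrophosphate, ALPL (tissue-nonspecific alkaline phosphatase) splits pyrophosphate into phosphate, and NT5E (CD73) turns AMP into adenosine and phosphate. SLC20A1 and SLC20A2 carry phosphate with sodium into cells, and XPR1 exports it. In people, mutations in SLC20A2, XPR1, MYORG, JAM2, PDGFB and PDGFRB cause primary familial brain calcification, which affects the basal ganglia and thalamus among other regions.

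Total counts ran from 13415391 to 29135064 per library, and mitochondrial genes took 3.22% to 12.1% of them. Markers of cortical neurons summed to 692 to 2462 CPM (counts brought to a common library total, with TMM scaling over all 16 libraries) in the 8 cortex libraries and to 14.6 to 268 CPM in the 8 thalamus libraries. Markers of thalamic neurons summed to 316 to 2728 CPM in thalamus and 96.3 to 461 CPM in cortex. The cortical list parted the regions without overlap, and in the thalamic list the lowest thalamus library, ret/ret replicate 4, lay below the highest cortex library, ret/ret replicate 2. In 2 animals, ret/wt replicate 3 and ret/ret replicate 2, the Y-linked gene Ddx3y was above 1 CPM (55.2 to 68.7 CPM, against at most 0.219 CPM in the others), and these animals stood apart in other ways too. Their cortex libraries held cerebellum markers at 1053 and 2582 CPM, summed over the 8 genes of that list, against 10.9 to 38.6 CPM in the other cortex libraries. Their thalamus libraries had thalamic neuron markers at 2566 and 2728 CPM, against 316 to 906 CPM in the other thalamus libraries. Values with and without these animals are given below wherever they differ in a way that matters.

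The 9 genes covered a wide range of levels. On the scale of CPM per kilobase of annotated exon, averaged over the 16 libraries, Ank stood first at 64.4 ± 7.98 and Slc20a1 second at 26.9 ± 3.82 (SD, n = 16). The ranges of these 2 genes over the libraries, 49.6 to 75.4 and 21.7 to 37.3, did not overlap, while that of Jam2, 8.98 to 21.96, just reached that of Slc20a1 and that of Slc20a2, 6.79 to 29.1, reached further into it. Jam2 (14.3 ± 4.69), Slc20a2 (12.2 ± 5.75), Myorg (9.10 ± 1.55) and Xpr1 (8.44 ± 1.69) followed, and their neighbours in this order did not differ beyond their spread (SD, n = 16 for each). Alpl (2.23 ± 1.23), Enpp1 (0.946 ± 0.433) and Nt5e (0.816 ± 0.323) were the lowest, and the ranges of Enpp1 and Nt5e overlapped (SD, n = 16 for each). Exon lengths came from the annotation, so the place of Xpr1, with 17880 annotated exon bases, depends on them: in CPM without length it ranked second. The lowest count of any of the 9 genes in any library was 38, for Alpl, well above the floor of 3 counts that a count of 0 would allow, and all 9 passed the filter on low counts in every comparison. Below, levels of 1 gene are compared in CPM.

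**Figure D1:**
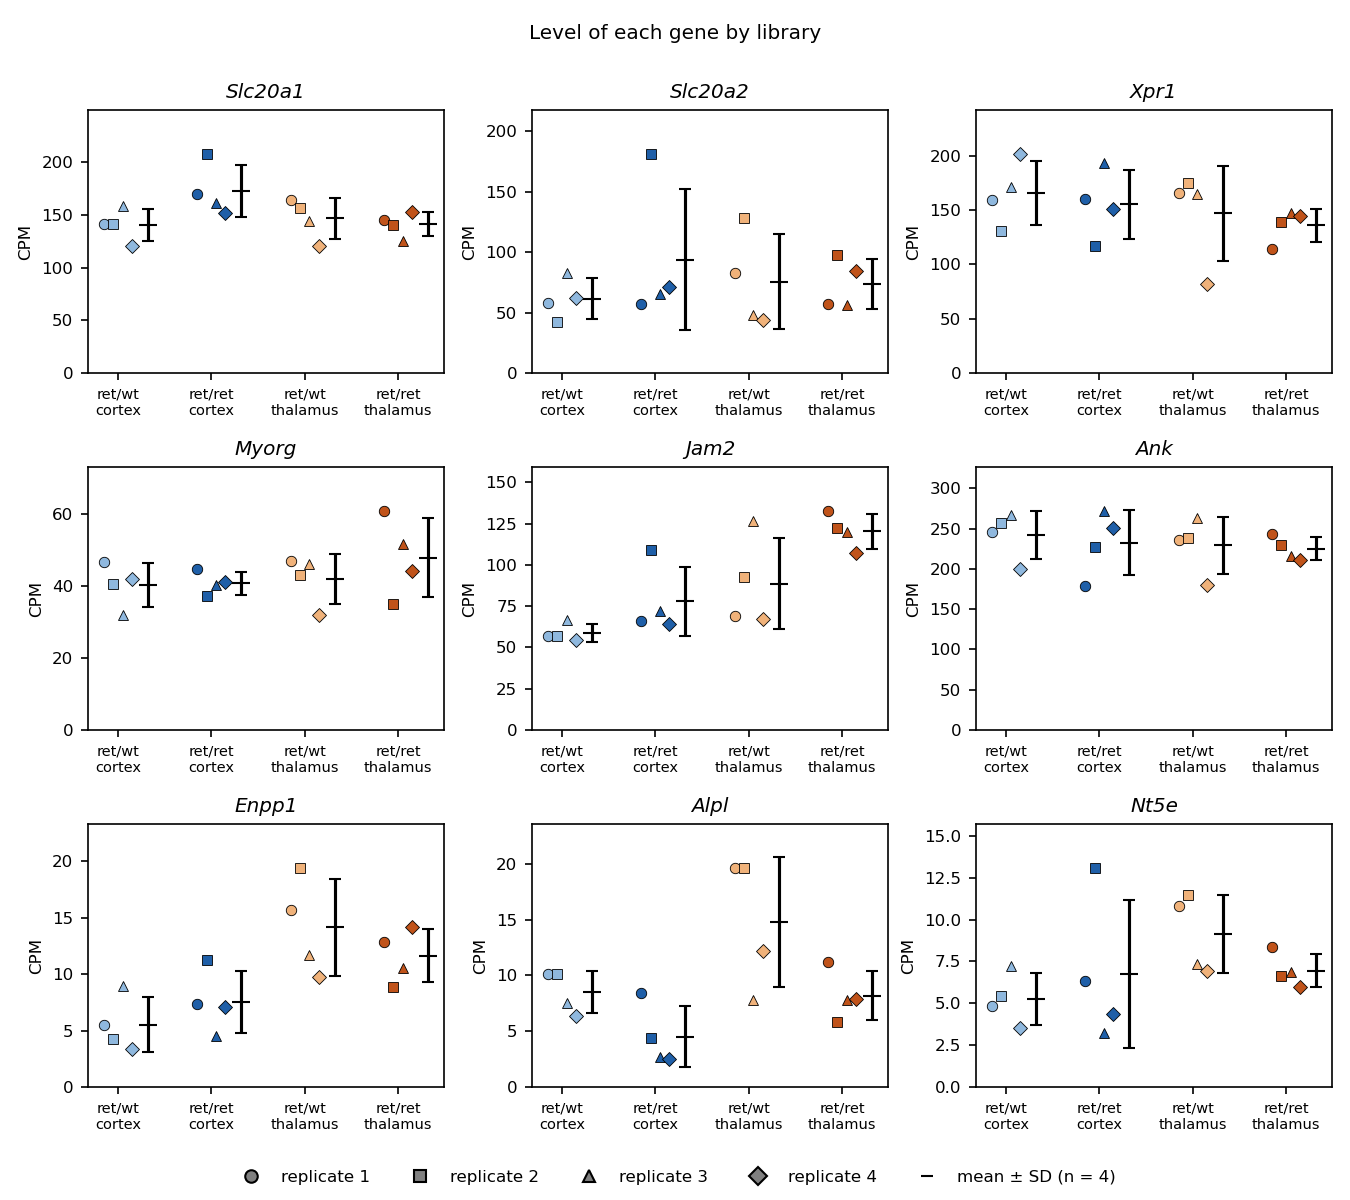
CPM of each of the 9 genes (y axis, linear from 0) in the 4 groups (x axis). Points are libraries, with the symbol giving the replicate number, and bars show the mean ± SD of 4 libraries. Alpl lies lower and Jam2 higher in ret/ret than in ret/wt on average, with overlap, and a single ret/ret cortex library reaches 181 CPM for Slc20a2.

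The 3 genes that came out higher in thalamus when all 8 animals were fitted together were Jam2, Enpp1 and Alpl. That fit was added after the data were seen, and 29.7% of all genes passed in it, 13.7% as higher. RefSeq promoter windows were available for 7 of the 9 genes, Enpp1 and Alpl among them. The 250 bases before the start site are shown for these because Enpp1 was the only member to pass the test in a single genotype and because Alpl has 2 start sites that a count per gene does not separate. Coordinates are GRCm38.p6, all 3 windows are on the minus strand, and capitals mark the GC box GGGCGG, the core of an Sp1-type site, which was searched on both strands.
Enpp1, chr10:24712160-24712409: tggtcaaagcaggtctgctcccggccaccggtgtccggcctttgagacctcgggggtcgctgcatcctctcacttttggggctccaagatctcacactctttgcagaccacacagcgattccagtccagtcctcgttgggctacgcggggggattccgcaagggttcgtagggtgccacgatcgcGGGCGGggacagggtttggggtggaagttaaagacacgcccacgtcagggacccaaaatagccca
Alpl, outer start site, chr4:137796385-137796634: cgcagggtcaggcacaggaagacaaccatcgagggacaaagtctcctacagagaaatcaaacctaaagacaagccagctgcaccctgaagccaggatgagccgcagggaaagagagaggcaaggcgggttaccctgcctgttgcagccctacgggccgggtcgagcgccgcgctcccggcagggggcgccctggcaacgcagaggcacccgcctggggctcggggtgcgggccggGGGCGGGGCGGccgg
Alpl, inner start site, chr4:137766476-137766725: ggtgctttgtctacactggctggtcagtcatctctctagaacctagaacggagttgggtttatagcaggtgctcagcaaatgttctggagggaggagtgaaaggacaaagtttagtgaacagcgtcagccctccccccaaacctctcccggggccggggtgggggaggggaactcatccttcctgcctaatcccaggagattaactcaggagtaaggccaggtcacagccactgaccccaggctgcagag
The Enpp1 window held 1 GC box, 65 bases before the start, and 17 CpG dinucleotides. The window of the outer Alpl start held 2 GC boxes that overlap by a base, at 15 and 10 bases before the start, and 20 CpG dinucleotides. The window of the inner Alpl start held 0 GC boxes and 4 CpG dinucleotides. Of all 32851 windows of this length in the table, 32.7% held a GC box, and the median CpG count was 6. These matches describe the letters and say nothing on whether a factor binds there. Enpp1 spans chr10:24637914-24712159 and Alpl chr4:137741733-137796384, and both are protein-coding.

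The comparison of genotypes in thalamus asks whether genes of the phosphate and pyrophosphate system differ between calcified tissue and the matching region of control animals. With edgeR's quasi-likelihood test, 0 of the 9 genes passed an adjusted p of 0.05, and so did 0% of all 14767 genes tested. At an unadjusted p under 0.05 the test named 581 genes (3.93%), with 1 of the 9 genes among them, and DESeq2 called 37 genes and none of the 9. In no member were the groups free of overlap, which held for 2.73% of all genes. The median log2 fold change of the 9 genes was -0.02, the same as that over all genes tested (-0.02). In cortex, which has no calcifications per the labels, again 0 of 9 passed, against 0.0210% of all genes, and 0 of 9 were free of overlap, against 2.32%. There the median log2 fold change of the members was 0.32 and that over all genes 0.01.

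Among the phosphate transporters, Slc20a1 was nearly level. Its values ran from 121 to 164 CPM in ret/wt thalamus and from 126 to 153 CPM in ret/ret thalamus, a log2 difference of -0.02 ± 0.16 (SE), with a 95% interval of -0.37 to 0.33. In cortex it read 141, 141, 158 and 121 CPM in ret/wt replicates 1 to 4 and 170, 208, 162 and 151 CPM in ret/ret. The ret/ret libraries were higher on average by 0.32 ± 0.16 on the log2 scale (unadjusted p = 0.0701, adjusted p = 1.0), and the lowest ret/ret value lay below the highest ret/wt value.

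Slc20a2, the gene most often mutated in familial brain calcification, varied more between libraries than between groups. It read 58.2, 42.2, 83.0 and 61.8 CPM in ret/wt cortex, 57.3, 181, 65.0 and 71.5 CPM in ret/ret cortex, 82.3, 128, 47.8 and 43.4 CPM in ret/wt thalamus and 56.9, 97.9, 56.0 and 84.5 CPM in ret/ret thalamus. The value of 181 CPM belonged to the ret/ret cortex library with the most cerebellum markers, and the ret/wt cortex library with 1053 CPM of these markers had the highest value of its group, 83.0 CPM. The log2 difference between genotypes in cortex was 0.63 ± 0.38 (SE), and 0.09 without that ret/ret library. In thalamus it was 0.01 ± 0.34, with an interval of -0.75 to 0.77, so a rise or fall within these bounds cannot be told from no change.

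Xpr1, the phosphate exporter, ranged from 130 to 202 CPM in ret/wt cortex, 117 to 193 CPM in ret/ret cortex, 82.1 to 175 CPM in ret/wt thalamus and 114 to 147 CPM in ret/ret thalamus. All 4 ranges overlapped. The genotype differences were -0.07 ± 0.23 in thalamus and -0.08 ± 0.20 in cortex on the log2 scale (SE).

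Of the 2 calcification genes with no direct role in phosphate transport, Myorg, a glycosidase-like protein expressed in astrocytes, stayed between 31.96 and 61.0 CPM in all libraries. Its log2 genotype differences were 0.23 ± 0.21 in thalamus and 0.04 ± 0.16 in cortex (SE). Jam2, a junctional adhesion molecule of endothelial and other cells, read 57.0, 56.9, 66.6 and 54.3 CPM in ret/wt cortex and 66.2, 109, 72.2 and 64.5 CPM in ret/ret cortex. In thalamus it read 68.9, 92.4, 127 and 67.0 CPM in ret/wt and 133, 122, 120 and 107 CPM in ret/ret. The ret/ret thalamus libraries thus all lay above 3 of the 4 controls, and the fourth control, replicate 3, lay inside their range.

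The Jam2 difference between genotypes was 0.47 ± 0.22 in thalamus (SE, unadjusted p = 0.0576) and 0.43 ± 0.19 in cortex (unadjusted p = 0.0536), with an adjusted p of 1.0 in both. Without ret/ret cortex replicate 2, the library rich in cerebellum markers, the cortex difference was 0.22. Without both animals with Ddx3y above 1 CPM it was 0.69 in thalamus and 0.28 in cortex, with adjusted p of 1.0 in each. Summed endothelial markers ran from 221 to 256 CPM in ret/wt thalamus, 194 to 451 CPM in ret/ret thalamus, 138 to 232 CPM in ret/wt cortex and 186 to 390 CPM in ret/ret cortex. After the group means were subtracted, log2 Jam2 had r = -0.001 with the endothelial list and 0.62 with the astrocyte list over the 16 libraries, which share animals and tissue pieces, and 0.28 and 0.60 over the 12 libraries of the other animals. The part of either cell type in the Jam2 values was not tested. In bulk tissue, more cells of a type and more RNA per cell cannot be told apart.

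On the side of pyrophosphate supply, Ank was the steadiest of the 9 genes, with a highest value only 1.52 times the lowest. It ranged from 199 to 267 CPM in ret/wt cortex, 179 to 272 CPM in ret/ret cortex, 180 to 263 CPM in ret/wt thalamus and 211 to 243 CPM in ret/ret thalamus. The genotype difference in thalamus was 0.01 ± 0.16 (SE), with an interval of -0.35 to 0.37 on the log2 scale. Enpp1 read 15.7, 19.4, 11.7 and 9.76 CPM in ret/wt thalamus and 12.9, 8.90, 10.6 and 14.2 CPM in ret/ret thalamus, a log2 difference of -0.24 ± 0.26 (SE). The ranges overlapped, with 2 controls above every ret/ret value and 1 ret/ret value below every control. In cortex it read 5.49, 4.24, 8.92 and 3.37 CPM in ret/wt and 7.33, 11.2, 4.49 and 7.10 CPM in ret/ret (0.47 ± 0.38, SE, and 0.21 to 0.79 when single libraries were left out, the lowest without ret/ret replicate 2 and the highest without ret/wt replicate 3). In both cortex groups the highest Enpp1 value belonged to the library rich in cerebellum markers.

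Alpl, the enzyme that removes pyrophosphate, had the largest genotype difference of the 9 genes in either region, and it was lower in ret/ret. It read 19.6, 19.6, 7.83 and 12.2 CPM in ret/wt thalamus and 11.2, 5.86, 7.81 and 7.85 CPM in ret/ret thalamus. The means were 14.8 ± 5.82 and 8.17 ± 2.21 CPM (SD, n = 4 each), and ret/wt replicate 3 lay within the ret/ret range. The log2 difference was -0.82 ± 0.33 (SE), with an interval of -1.55 to -0.09, an unadjusted p of 0.0316 and an adjusted p of 1.0 in edgeR. In cortex Alpl read 10.1, 10.1, 7.56 and 6.35 CPM in ret/wt and 8.42, 4.41, 2.70 and 2.47 CPM in ret/ret. There 3 of the 4 ret/ret libraries were below all controls and replicate 1 was not (-0.91 ± 0.41, SE, unadjusted p = 0.0524, adjusted p = 1.0). When single libraries were left out, the Alpl difference ran from -1.39, without ret/ret replicate 1, to -0.72 in cortex and from -1.03 to -0.66 in thalamus.

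The cortex and thalamus values of Alpl come from the same 8 animals, so the regions are not separate evidence. When the 2 libraries of each animal were summed, a fit added after the data were seen, Alpl differed by -0.91 ± 0.33 (SE, unadjusted p = 0.0202, adjusted p = 0.858) and Jam2 by 0.47 ± 0.16 (SE, unadjusted p = 0.0162, adjusted p = 0.803) on the log2 scale. In that fit 0.0129% of 15505 genes passed the adjusted threshold and 5.13% an unadjusted p under 0.05, and none of the 9 genes passed after adjustment. In thalamus, Alpl differed by -0.89 without the animals with Ddx3y above 1 CPM.

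Alpl is known from vessels and meninges as well as bone. The 10 pericyte markers summed to 108 to 162 CPM in ret/wt cortex against 54.5 to 121 CPM in ret/ret cortex, and to 112 to 353 CPM in ret/wt thalamus against 68.1 to 235 CPM in ret/ret thalamus. In thalamus 0 of the 10 pericyte markers had a positive genotype difference (median -0.76, log2), and in cortex 2 of 8 tested had one (median -0.61). Fibroblast markers summed to 62.8 to 384 CPM in ret/wt thalamus and 75.2 to 505 CPM in ret/ret thalamus. After the group means were subtracted, log2 Alpl correlated at r = 0.70 with the fibroblast list, 0.65 with the endothelial list and 0.59 with the pericyte list over the 16 libraries, and at 0.56, 0.70 and 0.34 over the 12. With the astrocyte list r was 0.47 over the 16 and 0.73 over the 12, the latter the highest of any list. With the microglia list r was 0.19 and 0.60, so these values do not single out cells of vessels or meninges. The part of any of these cell types in the Alpl values was not tested.

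Nt5e, which makes adenosine from AMP, read 10.8, 11.5, 7.35 and 6.91 CPM in ret/wt thalamus and 8.33, 6.62, 6.84 and 5.99 CPM in ret/ret thalamus (-0.36 ± 0.25, SE). In cortex it read 4.87, 5.41, 7.21 and 3.53 CPM in ret/wt and 6.32, 13.1, 3.21 and 4.36 CPM in ret/ret (0.38 ± 0.44, SE). The value of 13.1 CPM came from the ret/ret cortex library rich in cerebellum markers, and without it the cortex difference was -0.17.

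**Figure D2:**
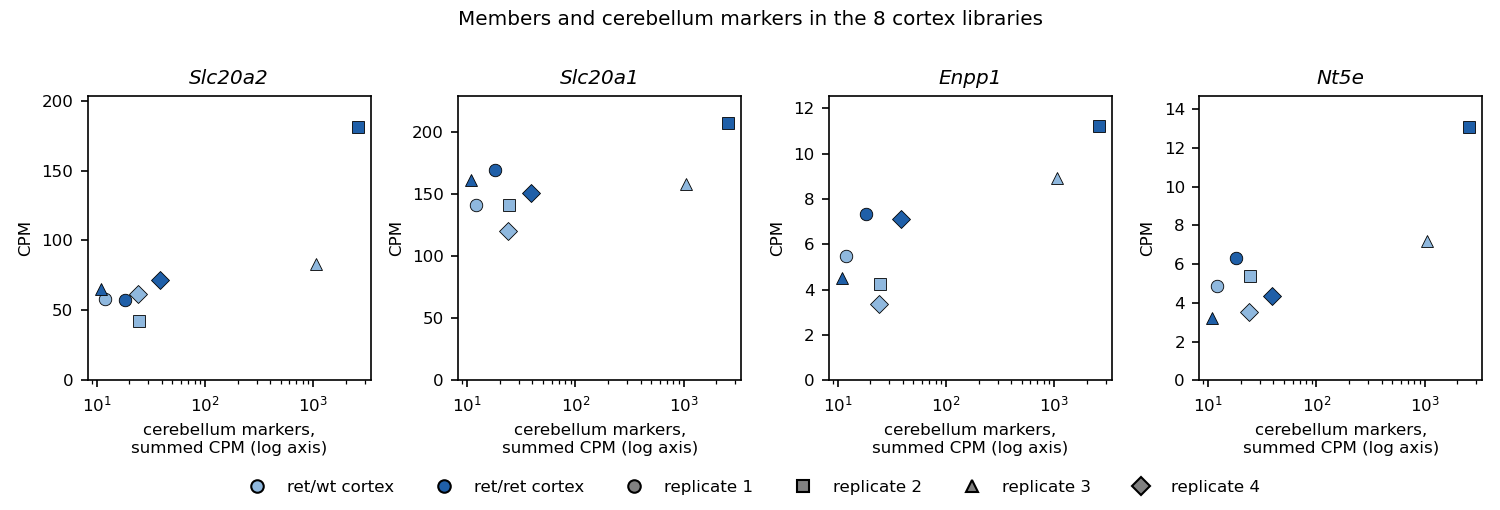
CPM of Slc20a2, Slc20a1, Enpp1 and Nt5e (y axis, linear from 0) against the summed CPM of 8 cerebellum markers (x axis, log scale) in the 8 cortex libraries. Colour gives the genotype and the symbol the replicate. The ret/ret library at 2582 CPM of markers is the highest in all 4 panels. Of the members not shown, Jam2 was also highest in that library (109 CPM). Xpr1 was the lowest of the 8 there (117 CPM) and Myorg the lowest of its group (37.2 CPM), with Ank and Alpl in between. In the ret/wt library at 1053 CPM of markers, Myorg was the lowest of the 8 (31.96 CPM).

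The comparison of regions within a genotype sets the calcification-prone thalamus against cortex of the same animals. In ret/wt animals, 1 of the 9 genes passed the test: Enpp1 was 2.57-fold higher in thalamus (log2 1.36 ± 0.35, SE, adjusted p = 0.0289). Of all 14442 genes tested, 12.6% passed, 5.44% with higher values in thalamus. Every ret/wt thalamus value of Enpp1 (9.76 CPM or more) lay above every ret/wt cortex value (8.92 CPM or less). Enpp1 and Jam2 were the 2 of 9 members free of overlap, as were 19.9% of all genes. The call was lost when any of 5 libraries was left out, which were ret/wt cortex replicates 1, 2 and 4 and ret/wt thalamus replicates 1 and 2, with an adjusted p of up to 0.0834 and log2 differences of 1.19 to 1.36.

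The other ret/wt regional differences did not pass. Jam2 was higher in thalamus by 0.61 ± 0.22 (SE, adjusted p = 0.111), Alpl by 0.81 ± 0.32 (adjusted p = 0.139) and Nt5e by 0.80 ± 0.31 (adjusted p = 0.119). Without the thalamus library of ret/wt replicate 3, an animal with Ddx3y above 1 CPM, the Alpl difference was 1.02 with an adjusted p of 0.0472. Alpl did not pass when both libraries of that animal were left out. The 3 phosphate transporters, Myorg and Ank lay between -0.17 and 0.30.

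In ret/ret animals, 0 of 9 genes passed, against 9.50% of all 14715 genes, and 0 of 9 were free of overlap, against 17.5%. Jam2 was closest, at 0.63 ± 0.19 (SE, 1.55-fold higher in thalamus, adjusted p = 0.0697). It was past the threshold without ret/ret cortex replicate 2 (0.86, adjusted p = 0.00733) and with DESeq2 (adjusted p = 0.0199). Alpl differed by 0.87 ± 0.42 (adjusted p = 0.219), Enpp1 by 0.63 ± 0.30 (adjusted p = 0.214), Nt5e by 0.04 ± 0.42 and Slc20a1 by -0.29 ± 0.15 (adjusted p = 0.251). Without the animal of ret/ret replicate 2, Enpp1 differed by 1.01 (adjusted p = 0.0407). The regional comparisons share their thalamus and cortex libraries with the genotype comparisons.

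Whether the genotype difference changed with region was tested directly as an interaction over all 16 libraries. None of the 9 genes passed (adjusted p of 1.0 for each), nor did any of 15286 genes (0%), while 1.60% of genes and 0 of the 9 had an unadjusted p under 0.05. The largest interactions among the members were -0.76 ± 0.52 for Nt5e, -0.73 ± 0.47 for Enpp1 and -0.64 ± 0.55 for Slc20a2 (SE, log2). Without ret/ret replicate 2 they were -0.18, -0.35 and -0.26, and without ret/wt replicate 2 those of Enpp1 and Slc20a2 were -0.42 and -0.11. Without ret/wt replicate 3 those of Enpp1 and Slc20a2 were -1.15 and -0.99. For Alpl the interaction was 0.07 ± 0.54, with an interval of -1.07 to 1.21, and for Jam2 it was 0.03 ± 0.30, with an interval of -0.60 to 0.66. Intervals this wide do not show that the genotypes responded alike.

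**Figure D3:**
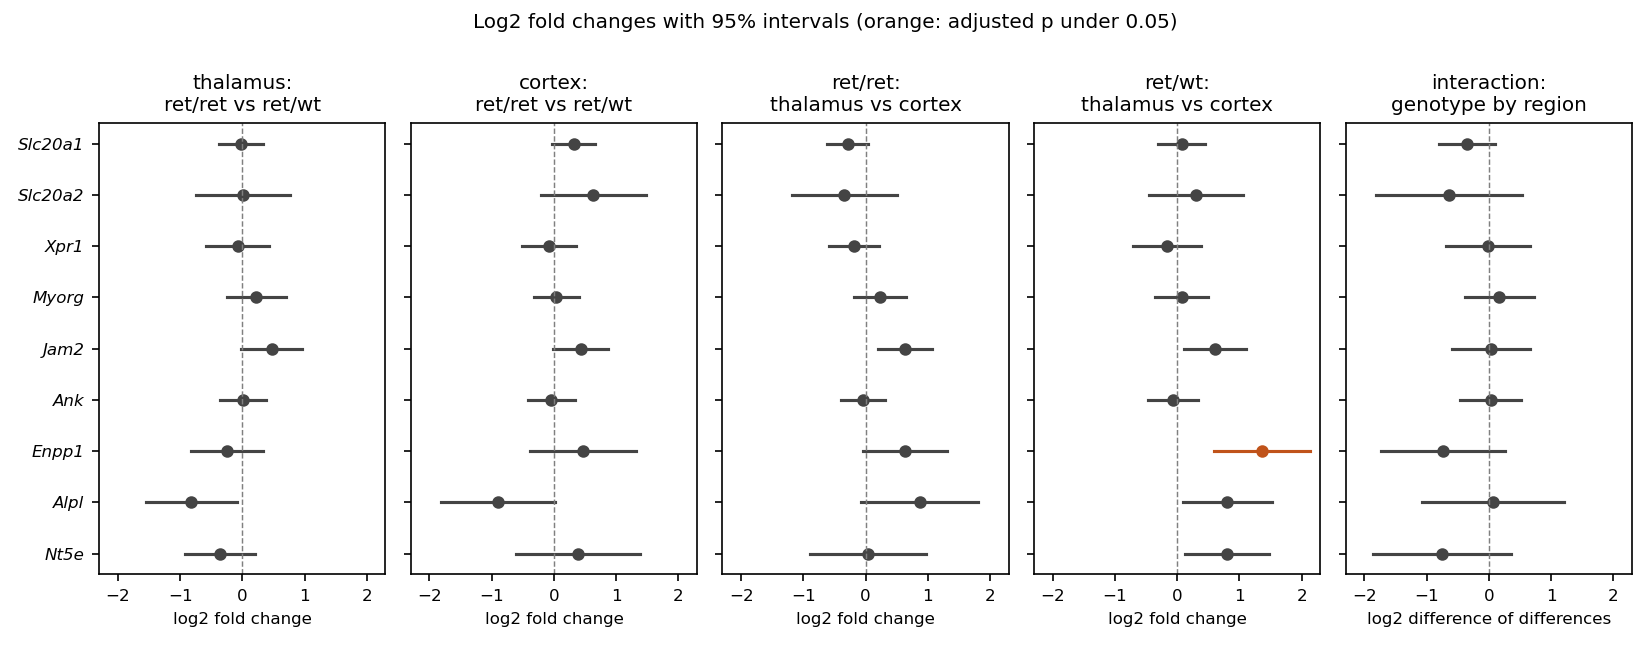
Log2 fold changes of the 9 genes (points) with 95% intervals (lines) from edgeR in the 4 comparisons and the interaction. Only Enpp1 between regions in ret/wt, in orange, passes an adjusted p of 0.05.

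Since cortex and thalamus came from the same animals, the regional difference was also read animal by animal. Jam2 and Alpl were higher in thalamus in 8 of 8 animals, Enpp1 and Nt5e in 7 of 8, and Myorg in 6 of 8. Slc20a1 was higher in 4 of 8, Slc20a2 and Xpr1 in 3 of 8 and Ank in 2 of 8. The animal in which Enpp1 and Nt5e were lower in thalamus was ret/ret replicate 2, whose cortex library was the one rich in cerebellum markers. Per animal, the log2 difference between regions ran from 0.169 to 1.005 for Jam2, from 0.05 to 1.67 for Alpl, from -0.33 to 2.20 for Enpp1 and from -0.984 to 1.149 for Nt5e.

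With all 8 animals in 1 fit and the animal as a block, a fit added after the data were seen, 3 of 9 genes passed, all higher in thalamus. They were Jam2 (0.60 ± 0.12, SE, 1.52-fold, adjusted p = 0.00388), Alpl (0.86 ± 0.20, 1.81-fold, adjusted p = 0.00856) and Enpp1 (1.04 ± 0.25, 2.05-fold, adjusted p = 0.0109). In the same fit 29.7% of all genes passed in either direction, and a count of 3 of 9 is close to that share. As higher, the direction of all 3, 13.7% of all genes passed. Whether the 9 genes differ from that share was not tested. Nt5e did not pass (0.53 ± 0.25, adjusted p = 0.133). For Ank the interval was -0.29 to 0.18, for Slc20a1 -0.36 to 0.13 and for Myorg -0.13 to 0.40. These intervals take the regional difference as the same in both genotypes. Within a genotype they reached further, to -0.47 for Ank in ret/wt and to -0.62 for Slc20a1 and 0.66 for Myorg in ret/ret.

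**Figure D4:**
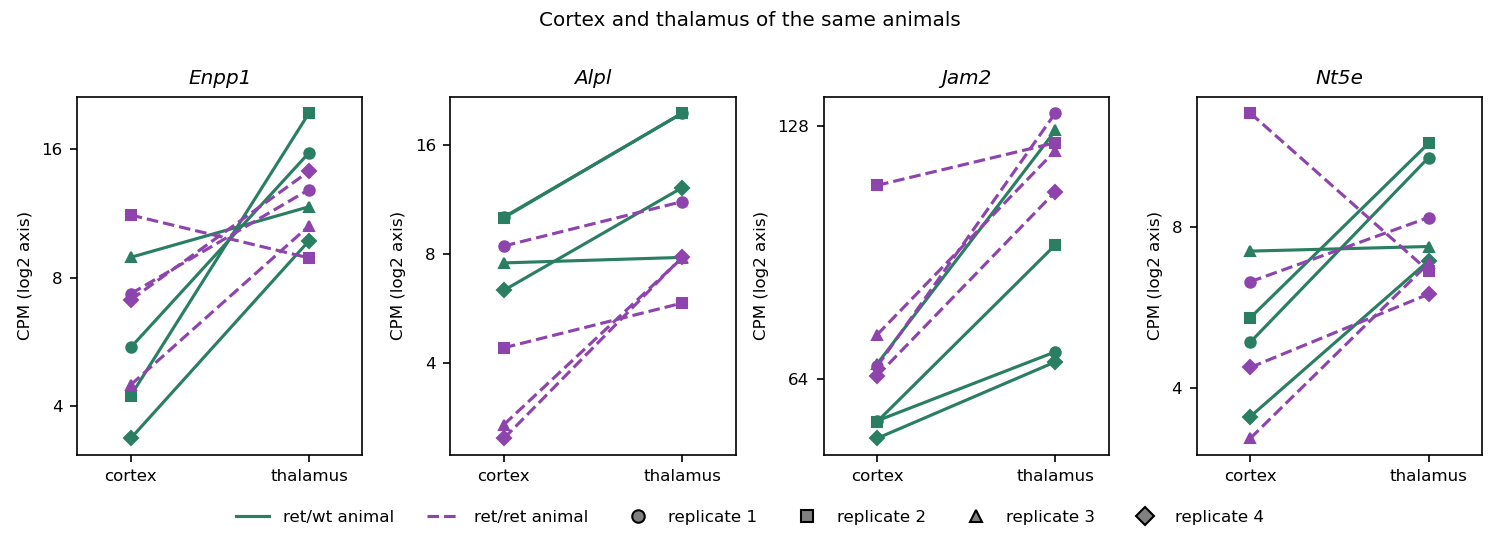
CPM of Enpp1, Alpl, Jam2 and Nt5e (y axis, log2 scale) in the cortex and thalamus of each animal, joined by a line. Solid lines are ret/wt animals, dashed lines ret/ret, and the symbol gives the replicate. Jam2 and Alpl rise from cortex to thalamus in 8 of 8 animals, and in the Alpl panel the lines of ret/wt replicates 1 and 2 lie on each other.

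The 9 genes did not all vary alike. After group means were subtracted, log2 values of Enpp1 and Nt5e correlated at r = 0.82, Slc20a1 and Enpp1 at 0.80, Slc20a1 and Nt5e at 0.79 and Slc20a1 and Slc20a2 at 0.70 over the 16 libraries. These libraries share animals, and the 2 cortex libraries with cerebellum markers weigh on the values. Over the 12 libraries of the other animals the same 4 pairs had r of 0.76, 0.73, 0.62 and 0.54. Alpl and Nt5e had r = 0.54 over 16 libraries and 0.87 over 12, and Slc20a2 and Xpr1 0.18 and 0.82. Of the correlations of the 9 genes with 12 cell type lists, the highest was that of Nt5e with astrocytes (r = 0.92 over 16 libraries and 0.91 over 12). The lowest over the 16 libraries was that of Slc20a2 with microglia (r = -0.82, and -0.56 over the 12). Over the 12 the lowest was that of Ank with smooth muscle cells (r = -0.745, and -0.755 over the 16).

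The gene whose residual values were most like those of a member, among 12772 genes over the 16 libraries, is given for 8 of the 9. The highest Pearson correlations given were 0.96 for Thbs1 with Nt5e, 0.96 for Rabgap1l with Xpr1 and 0.96 for Ldlrad3 with Slc20a1. Next came 0.90 for Maoa with Enpp1, 0.90 for Dazap1 with Myorg, 0.89 for Prps1l3 with Slc20a2, 0.89 for Shc4 with Jam2 and 0.88 for Hgs with Ank. None of the 9 genes was among the 3 most alike of another. With 16 libraries and so many genes, values of this size describe these libraries only.

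Beyond the 9 members, 64 genes of the wider pathway were followed in 5 lists. No gene of these lists passed in either genotype comparison or the interaction (0 of 59 tested in thalamus, 0 of 55 in cortex and 0 of 59 in the interaction). Pdgfrb, the PDGF-B receptor of pericytes and itself a familial calcification gene, read 20.9, 17.9, 10.6 and 18.8 CPM in ret/wt thalamus and 21.9, 7.33, 8.58 and 10.2 CPM in ret/ret thalamus (-0.47 ± 0.37, SE). In cortex it read 24.6, 18.8, 11.9 and 12.5 CPM in ret/wt and 12.2, 11.1, 9.46 and 11.1 CPM in ret/ret (-0.61 ± 0.26, unadjusted p = 0.0414, adjusted p = 1.0). Cmpk2 and Naa60, the other listed familial genes, did not pass in any comparison, and Pdgfb was not analysed here.

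Among genes of ATP, pyrophosphate and adenosine handling, the smallest unadjusted p in thalamus was that of Adora2a, an adenosine receptor (1.84 ± 0.70, SE, adjusted p = 1.0). Its ret/ret values were 13.03, 1.34, 2.96 and 1.81 CPM, so 1 library carried most of the difference, and without it the log2 difference was 0.59. In cortex it was that of Adk, adenosine kinase, at 45.6 to 62.9 CPM in ret/wt and 63.5 to 116 CPM in ret/ret (0.63 ± 0.21, SE, adjusted p = 1.0), with no overlap. Usp18 is a regulator of interferon signalling whose loss in people causes brain calcification. It read 0.658 to 0.977 CPM in ret/wt cortex and 1.92 to 5.23 CPM in ret/ret cortex (1.85 ± 0.43, SE, adjusted p = 0.642), also with no overlap. Ifih1, of the same list as Usp18, was free of overlap too, at 4.18 to 7.38 CPM in ret/wt and 7.41 to 10.9 CPM in ret/ret. Of all genes, 2.32% were free of overlap in cortex. In the interaction, the smallest unadjusted p of a listed gene was that of Folr1, a folate receptor and choroid plexus marker found at 0 to 6.57 CPM (4.66 ± 1.56, SE, adjusted p = 1.0).

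Spp1, osteopontin, an inhibitor of crystal growth made by microglia among other cells, read 45.8, 43.4, 39.3 and 50.7 CPM in ret/wt thalamus and 70.7, 43.5, 34.6 and 403 CPM in ret/ret thalamus. The difference of 1.65 ± 0.70 (SE, adjusted p = 1.0) rested on ret/ret replicate 4, and without it was 0.18. Microglia markers summed to 327 to 397 CPM in ret/wt thalamus and 504 to 687 CPM in ret/ret thalamus, with 8 of 8 markers positive and 6 at an unadjusted p under 0.05. Their part in the Spp1 values was not tested. Between regions Spp1 passed in both genotypes, higher in thalamus by 2.15 ± 0.21 in ret/wt (adjusted p = 0.000264) and by 4.20 ± 0.84 in ret/ret (adjusted p = 0.0165, and 2.72 without replicate 4 of the thalamus). In ret/ret the call was lost without cortex replicate 3 or 4 (adjusted p = 0.0546 and 0.0511).

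Between regions, 8 of 58 tested genes of the lists passed in ret/wt and 6 of 59 in ret/ret, all higher in thalamus. Of all genes, 12.6% and 9.50% passed in either direction, and the share in the lists was close to that. As higher, the direction of all calls in the lists, 5.44% and 4.10% of all genes passed, less than in the lists. Whether the lists differ from that share was not tested. In ret/wt the list of ATP, pyrophosphate and adenosine gave 3 of 20: Entpd3, which degrades extracellular ATP (1.61 ± 0.26, SE), the nucleoside transporter Slc29a1 (1.34 ± 0.38) and the phosphorylase Pnp (0.77 ± 0.22). In ret/ret it gave 2 of 20, Entpd3 (1.29 ± 0.29) and Pnp (0.94 ± 0.18). The list medians were 0.44 and 0.47, beside 0.03 and -0.02 over all genes. With the animal as a block, Pnp had an adjusted p of 0.108 in ret/wt and Entpd3 of 0.0685 in ret/ret. Pnp in ret/wt also lost its call in each of the 8 fits that left out a library, and Slc29a1 in 6 of them. Without the ret/wt animal with Ddx3y above 1 CPM, Slc29a1 had an adjusted p of 0.163 and Pnp of 0.195, and Pnp had 0.0542 with limma-voom and 0.0666 with no filter on low counts. Entpd3 in ret/ret lost it without cortex replicate 3 or 4 or thalamus replicate 3 or 4, with adjusted p of up to 0.0793.

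Of the 18 genes of other inherited brain calcifications, 3 passed in each genotype: Qdpr, of biopterin recycling (1.39 ± 0.26 in ret/wt and 1.45 ± 0.16 in ret/ret, SE), Car2, carbonic anhydrase 2 (0.85 ± 0.19 and 0.85 ± 0.16), and Jam3, a relative of Jam2 (0.88 ± 0.19 and 0.80 ± 0.16). Jam3 in ret/ret lost its call without cortex replicate 3 or thalamus replicate 4 (adjusted p of up to 0.0582), and Car2 in ret/wt without cortex replicate 1 (adjusted p = 0.0558). Oligodendrocyte markers, all 6 of which rose between regions in both genotypes, summed to 1770 to 4419 CPM in cortex and 9446 to 16358 CPM in thalamus. Their part in these 3 genes was not tested. Of the phosphate list, Pth1r, the parathyroid hormone receptor, passed in ret/wt alone (1.41 ± 0.28, SE, adjusted p = 0.00888), and 0 of 13 genes passed in ret/ret. There the smallest p was that of Ip6k3, an inositol hexakisphosphate kinase (1.70 ± 0.65, SE, adjusted p = 0.131), which passed only without ret/ret cortex replicate 1 (2.56, adjusted p = 0.0359). The remaining ret/ret cortex libraries held Ip6k3 at 0.219 to 0.349 CPM, near the floor of 0.103 to 0.224 CPM, so this difference rests on few counts.

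**Figure D5:**
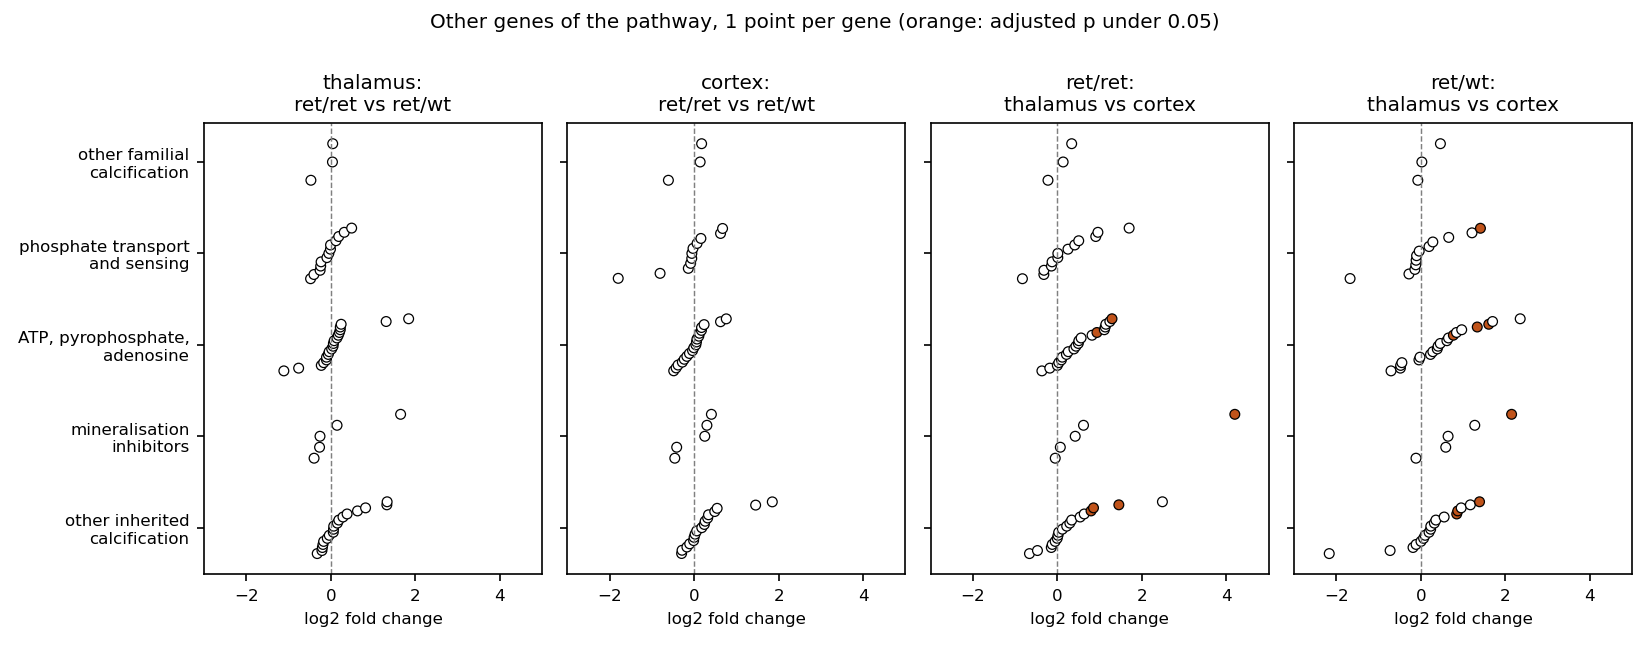
Log2 fold changes of the other genes of the pathway, 1 point per gene, by list (rows) in the 4 comparisons (panels). Orange points pass an adjusted p of 0.05: none between genotypes, 6 between regions in ret/ret and 8 between regions in ret/wt, all to the right of 0.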

How the data were processed

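PolyA-selected RNA of 16 libraries from 8 mice was analysed. The deposited values are estimated counts per Ensembl gene (expected counts), not scaled: 99.96% of the nonzero values were not whole within a tolerance of 1e-06. Per the submitters' processing notes, kallisto 0.44.0 and the build GRCm38.p6 were used, with no step or order given. Symbols, coordinates and exon lengths came from GENCODE M21 on GRCm38, matched for 21581 genes (99.0%).

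Counts were rounded and analysed in R 4.3.3 with edgeR 4.0.16: filterByExpr (minimum count 10, minimum total 15), TMM scaling, quasi-likelihood test, Benjamini-Hochberg adjustment over all genes of a comparison. Each comparison was fitted on its own 8 libraries without a block, and the interaction on 16. Standard errors follow from the F statistic. Alternatives used limma 3.58.1 and DESeq2 1.42.0, and plots used matplotlib 3.10.9. The pipeline was tested on simulated data. A floor of 3 counts is 0.103 to 0.224 CPM and covers counting error only.

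Regions are paired because the labels give both libraries of an animal the same identifier. Residuals of same-numbered libraries correlated at a mean r of 0.0884 in ret/ret and 0.0608 in ret/wt. For libraries of different numbers the mean r was -0.0291 and -0.0205. In each genotype only 1 of 4 thalamus libraries matched the cortex library of its own number best, so these residuals show the pairing weakly. The members and lists were chosen with earlier results of these data known. From each list and comparison, the text draws on up to 3 genes past the threshold with the largest change and a log2 CPM of 1 or more on average, or else the gene with the smallest p. For likeness the 3 most correlated genes were taken, and that of Alpl is not reported here. Slc20a2 overlaps Smim19, and Ank overlaps Otulin, on the opposite strand. Whether strand was used in counting is not given in the sources used here, so reads of these pairs may not be separated.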

Additional observations from a re-analysis of the deposited data

Results flagged for a closer look

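In groups of 4 libraries, a value was singled out when its gap to the nearest other value as a share of the group's range was above Dixon's 95% limit. That picked 10 of 112 groups tested, and 2 of the 36 groups of the 9 members, where chance picks about 1 in 20. In ret/ret cortex, Slc20a2 read 181 CPM in replicate 2 and 57.3 to 71.5 CPM in the other 3 libraries, and the former also had the most cerebellum markers. Xpr1 read 82.1 CPM in ret/wt thalamus replicate 4, against 164 to 175 CPM in the others.

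In ret/ret thalamus, Spp1 read 403 CPM in replicate 4, and replicate 1 was highest for Adora2a (13.03 CPM), Adk (131.0 CPM) and Folr1 (3.99 CPM). In ret/ret cortex, replicate 1 was highest for Ip6k3 (1.23 CPM) and Entpd3 (11.98 CPM). In ret/wt cortex, Kl read 49.6 CPM in replicate 4, where choroid plexus markers summed to 1719 CPM against 305 to 431 CPM in the other 3 libraries, and Pth1r read 4.82 CPM in replicate 2.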

How the results depend on the processing

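Over 738 fits of the 9 members under other settings or samples, 666 kept direction and side of the threshold, 5 lost the call (all of Enpp1 between regions in ret/wt), 10 gained one and 57 turned sign; in 24 of 45 member comparisons no fit turned the sign. Counts of genes past the threshold moved as follows. DESeq2 gave 37 in thalamus by genotype (main 0), 38 in cortex (main 3), 2591 between regions in ret/ret (main 1398), 2587 in ret/wt (main 1813) and 4 in the interaction (main 0). With the replicate block the counts were 0, 0, 1177, 1487 and 0 in the same order. The block pairs different animals between genotypes, where same-numbered libraries correlated at a mean r of -0.0236 in thalamus and -0.00272 in cortex and 0 and 1 of 4 libraries matched their own number best. Apart from Pnp and Entpd3, the block changed no call of a named gene. With Ddx3y animals left out (for genotype and interaction chosen after seeing the data), the counts were 1 in cortex and 2564 between regions in ret/ret. Both genotypes together gave 4536, and summing per animal 2, both also chosen after seeing the data. Leaving out single libraries gave 0 to 0 in thalamus, 0 to 2 in cortex, 627 to 2007 in ret/ret and 1178 to 1797 in ret/wt, and leaving out single animals 0 to 0 in the interaction. The count in ret/ret was 759 or less without thalamus replicate 1, 3 or 4 or cortex replicate 3 or 4, and that in ret/wt was 1178 without cortex replicate 1. With library size alone, ret/wt had 977 genes higher and 844 lower in thalamus, against 785 and 1028 with TMM.

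No value whose sign turned was past the threshold. With library size alone, Slc20a2 was -0.039 and Ank -0.011 in thalamus by genotype, Ank 0.027 between regions in ret/ret and 0.026 in ret/wt, and the interaction of Jam2 -0.000585. Without the Ddx3y animals, Slc20a2 was -0.32 in thalamus, Xpr1 0.051, Myorg -0.020 and Ank 0.014 in cortex, Slc20a2 0.042 between regions in ret/ret and Myorg -0.077 in ret/wt. Summed per animal, Slc20a1 was 0.13, Ank -0.013, Enpp1 -0.070 and Nt5e -0.11. With both genotypes together, Slc20a1 was -0.11 and Slc20a2 -0.025 between regions. The interaction of Xpr1 was 0.043 with limma-voom and 0.034 with the replicate block. When single libraries were left out, thalamus by genotype spanned -0.086 to 0.044 for Slc20a1, -0.17 to 0.38 for Slc20a2, -0.26 to 0.018 for Xpr1 and -0.076 to 0.085 for Ank. Cortex by genotype spanned -0.20 to 0.037 for Xpr1, -0.075 to 0.12 for Myorg, -0.12 to 0.064 for Ank, -0.17 to 0.62 for Nt5e and -2.43 to 0.089 for Kl. Regions in ret/ret spanned -0.49 to 0.22 for Slc20a2, -0.12 to 0.064 for Ank and -0.17 to 0.61 for Nt5e, and in ret/wt -0.064 to 0.49 for Slc20a2, -0.26 to 0.024 for Xpr1, -0.030 to 0.17 for Myorg and -0.14 to 0.021 for Ank. The interaction, without single animals, spanned -0.32 to 0.19 for Xpr1, -0.087 to 0.24 for Jam2, -0.11 to 0.14 for Ank, -0.11 to 0.37 for Alpl and -0.46 to 1.75 for Kl. The causes were not tested. With 4 animals a group, the SE of the 9 members' log2 differences ran from 0.15 to 0.55, which limits what can be seen.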
